A study of Mus musculus with 6 samples.

Results

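The chemokine genes of the mouse and the genes of their receptors were examined in a map of accessible chromatin from liver. Members were the protein-coding RefSeq genes whose symbol begins with Ccl, Cxcl, Xcl or Cx3cl (ligands) or with Ccr, Cxcr, Xcr or Cx3cr (receptors) followed by digits. The rule found 58 genes, of which 57 lie on a chromosome of the mm10 build, 38 ligands and 19 receptors among 21774 protein-coding genes. The ligand Ccl21c is annotated only on an unplaced piece of chromosome 4 and could not be counted. By the labels, ATAC-seq, which marks open DNA by inserting sequencing adapters with a transposase, was applied to liver of mice fed a high-fat diet, all wild type and male, with 3 libraries from the inbred strain C57BL/6J and 3 from the inbred strain 129S1/SvImJ. All 6 libraries share the sex, the genotype, the diet, a transposition mix with digitonin and an antibody entry that names Esrrg, although ATAC-seq uses no antibody. The labels call the transposed material LMs without explaining it, and whether each library is a different animal is not given.

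The deposited data were 1 combined list of 120905 intervals, 201 to 401 bp wide, with a position for each and no score, read count, strain or library. The depth behind an interval is therefore unknown, no level could be given for any gene, and the strains could not be compared. An interval carried by a few cells cannot be told apart from an interval carried by most cells of the tissue. Of 10 hepatocyte marker genes, 10 had an interval in the gene or 10 kb of it (most at Hnf4a, Cps1 and Serpina1a), as had 10 of 10 sinusoidal endothelial markers (Stab2, Tek and Cdh5) and 10 of 10 hepatic stellate markers (Reln, Hgf and Lhx2). It was 7 of 10 for macrophage and Kupffer cell markers (most at Marco, Csf1r and Lyz2), 5 of 10 for lymphocyte markers (Cd4, Cd79a and Nkg7) and 4 of 8 for neutrophil markers (Elane, S100a8 and Retnlg). Of all coding genes 84.4% had one, and of those shorter than 10 kb 70.0%. The exact binomial ranges of the marker shares are wide. They were 69.15 to 100% for hepatocytes, endothelium and stellate cells alike, and 34.75 to 93.33% for macrophages. For lymphocytes and neutrophils they were 18.71 to 81.29% and 15.7 to 84.3%. All hold 70.0%, and those of lymphocytes and neutrophils end below 84.4%. Median spans were 36260 bp and 37300 bp for endothelial and stellate markers, against 7086 bp and 2586 bp for lymphocyte and neutrophil markers. They were 10750 bp for hepatocyte markers, with 10 of 10, and 19380 bp for macrophage markers, with 7 of 10. The part of gene length in these shares was not tested. The macrophage markers Adgre1, C1qa and C1qb, the lymphocyte markers Cd3d, Cd8a, Ms4a1, Il7r and Ncr1 and the neutrophil markers S100a9, Ly6g, Mpo and Camp had no interval. The part of these cell types in the chemokine results was not tested.

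Chemokines are small secreted proteins that attract leukocytes along a gradient, and they are grouped by the spacing of their first cysteines into CC, CXC, XC and CX3C families. They act on membrane receptors that couple to inhibitory G proteins and are carried mainly by leukocytes. In liver, chemokines are made by hepatocytes, Kupffer cells, sinusoidal endothelial cells and stellate cells. Monocyte recruitment through Ccr2 and neutrophil recruitment through Cxcr2 are well known in fatty liver. Many inflammatory chemokine genes are induced through NF-κB, and Cxcl9 and Cxcl10 through interferon signalling.

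The results below turn on intervals at gene starts, so the 250 bases upstream of the start are shown for 7 members with an interval at the start. Sequences are from RefSeq on GRCm38.p6 (mm10) and run 5′ to 3′ on the gene's strand up to the base before the start, which is position -1. Capitals mark matches on either strand, at any position, to the letters of the TATA box (TATAAA), to the interferon-stimulated response element (ISRE) and to the NF-κB consensus. Cxcl1, Cxcl2 and Cxcl10 show the NF-κB matches under an interval, Ccl9 the same in a CC ligand, Cx3cl1 and Cxcl12 starts covered by an interval without an NF-κB match, and Cxcr4 the receptor with the interval nearest to its start.
Cxcl1 (chr5:90890995-90891244, plus strand): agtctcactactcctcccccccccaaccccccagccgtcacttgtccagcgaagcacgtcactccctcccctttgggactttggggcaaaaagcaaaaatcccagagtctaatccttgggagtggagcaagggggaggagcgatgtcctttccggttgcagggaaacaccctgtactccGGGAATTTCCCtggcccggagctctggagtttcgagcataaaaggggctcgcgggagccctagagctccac
Cxcl2 (chr5:90903649-90903898, plus strand): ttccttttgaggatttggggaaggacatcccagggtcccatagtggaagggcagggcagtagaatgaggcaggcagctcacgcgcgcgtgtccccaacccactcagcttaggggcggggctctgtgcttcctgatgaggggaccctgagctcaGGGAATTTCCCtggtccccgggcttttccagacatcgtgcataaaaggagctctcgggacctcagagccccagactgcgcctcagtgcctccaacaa
Cxcl10 (chr5:92348890-92349139, minus strand): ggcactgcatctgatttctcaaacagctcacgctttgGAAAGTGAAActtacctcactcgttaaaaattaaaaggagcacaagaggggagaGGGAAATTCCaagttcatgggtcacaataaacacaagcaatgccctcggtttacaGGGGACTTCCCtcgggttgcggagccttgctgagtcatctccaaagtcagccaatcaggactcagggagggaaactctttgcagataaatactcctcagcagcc
Ccl9 (chr11:83578637-83578886, minus strand): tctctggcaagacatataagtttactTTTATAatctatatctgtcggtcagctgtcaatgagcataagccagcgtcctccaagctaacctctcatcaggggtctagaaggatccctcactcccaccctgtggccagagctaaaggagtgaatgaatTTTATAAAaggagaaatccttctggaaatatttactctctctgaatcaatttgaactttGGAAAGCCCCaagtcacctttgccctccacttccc
Cx3cl1 (chr8:94771930-94772179, plus strand): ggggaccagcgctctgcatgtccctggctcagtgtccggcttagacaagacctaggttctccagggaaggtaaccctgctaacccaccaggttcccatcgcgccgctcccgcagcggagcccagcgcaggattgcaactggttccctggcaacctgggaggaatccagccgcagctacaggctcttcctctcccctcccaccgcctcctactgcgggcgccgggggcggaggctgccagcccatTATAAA
Cxcl12 (chr6:117168285-117168534, plus strand): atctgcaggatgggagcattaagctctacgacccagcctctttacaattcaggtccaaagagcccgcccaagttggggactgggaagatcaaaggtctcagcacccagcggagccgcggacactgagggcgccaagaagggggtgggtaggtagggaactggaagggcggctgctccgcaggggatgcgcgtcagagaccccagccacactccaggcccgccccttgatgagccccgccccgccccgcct
Cxcr4 (chr1:128592300-128592549, minus strand): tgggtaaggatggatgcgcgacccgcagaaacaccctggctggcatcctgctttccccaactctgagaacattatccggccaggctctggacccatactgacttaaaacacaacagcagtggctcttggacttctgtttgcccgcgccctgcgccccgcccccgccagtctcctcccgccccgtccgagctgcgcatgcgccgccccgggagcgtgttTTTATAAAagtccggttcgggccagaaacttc

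In and around the 57 genes, counting the gene span with a flank of 10 kb on both sides, lay 94 different intervals. Ligands had 64 and receptors 30, no interval was shared between a ligand and a receptor, and 8 were shared by neighbouring members. At least 1 interval was present at 27 of 38 ligands (71.1%, exact Clopper-Pearson 95% interval 54.1 to 84.6) and at 16 of 19 receptors (84.2%, 60.4 to 96.6). Of all protein-coding genes 84.4% had one, and of those shorter than 10 kb 70.0%. The binomial intervals treat genes as independent, which neighbouring genes are not, and those of ligands and receptors overlap widely. Ligand genes are short, with a median span of 4004 bp against 7253 bp for receptors and 17220 bp for all coding genes, and counts per gene were not corrected for length. Ligands had a median of 1 interval per gene (quartiles 0 and 3), receptors 2 (1 and 2), and all coding genes 3 (1 and 5). Per 10 kb of span and flanks the pooled density was 0.662 at ligands and 0.554 at receptors. The pooled density was 0.633 over all coding genes and 0.737 over those shorter than 10 kb. It counts a shared interval, and flanks that overlap, once for each gene, which makes 71 counts at ligands and 31 at receptors. The median density per gene was 0.4525 at ligands, 0.5049 at receptors and 0.655 over all coding genes. The order of the classes in density thus depends on the measure. Without the flanks the order of the shares turned, to 47.4% of ligands and 36.8% of receptors with an interval overlapping the gene itself, against 69.5% of all coding genes.

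**Figure D1:**
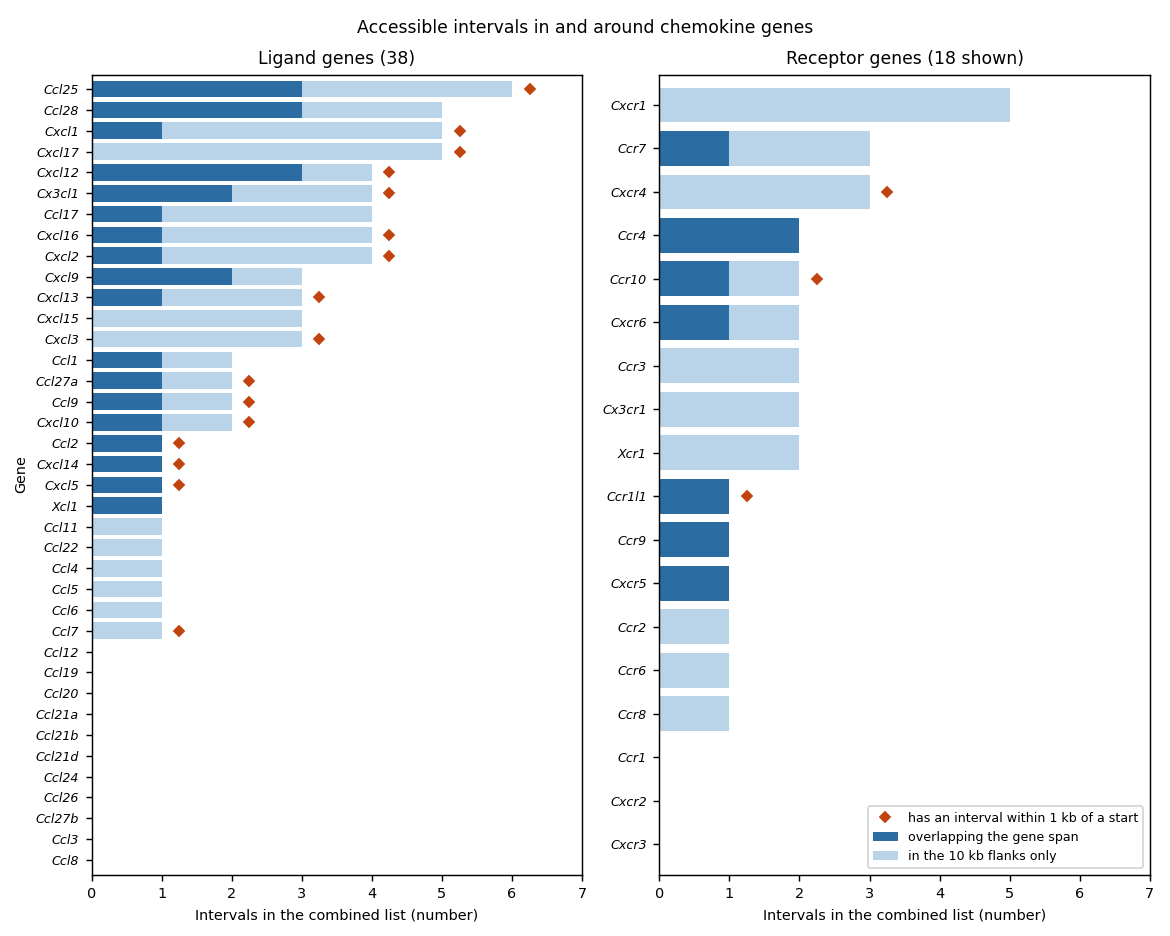
Number of intervals for each of 38 ligand genes (left) and 18 of the 19 receptor genes (right); dark bars count intervals overlapping the gene span, light bars those only in the 10 kb flanks, and diamonds mark genes with an interval within 1 kb of a start. Ccl25 leads with 6, 11 ligands and 3 receptors have none, and diamonds stand at 16 ligands and 3 receptors.

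Ligands and receptors were further apart at the gene start. An interval lay within 1 kb of a start at 16 of 38 ligands (42.1%, 95% interval 26.3 to 59.2) and at 3 of 19 receptors (15.8%, 3.38 to 39.6), where 62.1% of all coding genes and 42.6% of those shorter than 10 kb had one. RefSeq starts were matched for 28 ligands and 15 receptors, and either end of the span stood in for the start at the other members. Counting both span ends for every gene gave 18 of 38 ligands and 5 of 19 receptors, against 61.8% of all coding genes. Among members with a matched start the counts were 11 of 28 ligands and 2 of 15 receptors, against 61.7% of coding genes with an annotated start. With a window of 500 bp the shares of ligands and receptors were 39.5% and 10.5%, against 58.7% of all coding genes. With 2 kb they were 50.0% and 31.6%, against 66.0%, and with 5 kb 60.5% and 57.9%, against 73.5%. With 10 kb they were 68.4% and 63.2%, against 79.9%. The gap between the classes thus narrowed from 26.3 percentage points at 1 kb to 2.63 points at 5 kb and was wider again at 10 kb. The binomial intervals of both classes overlap at every window, which does not decide whether they differ. No test of the difference was made, since genes are not samples and neighbours share intervals.

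**Figure D2:**
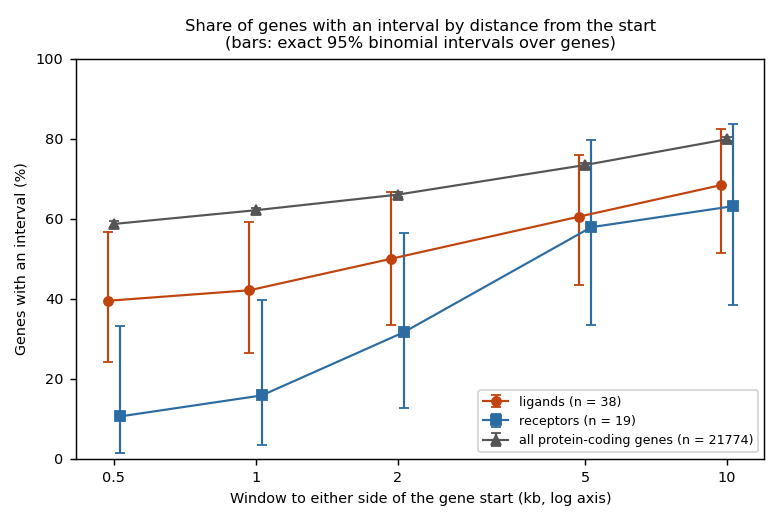
Share of genes with an interval (vertical axis, percent) against the window to either side of the start (horizontal axis, kb, log scale) for 38 ligands, 19 receptors and 21774 protein-coding genes, with exact 95% binomial intervals as bars. Receptors rise from 10.5% at 0.5 kb to 57.9% at 5 kb against 60.5% for ligands, both under the 73.5% of all coding genes.

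Within the ligands the CXC and CC families differed in these counts, a split made after the values were seen. All 12 CXC ligand genes had an interval in the span and 10 kb around it, and 10 of 12 (83.3%, 51.6 to 97.9) had one at the start. Of 24 CC ligand genes 13 had an interval (54.2%, 32.8 to 74.4), and 5 (20.8%, 7.13 to 42.2) had one at the start. The binomial intervals of the families at the start do not overlap, but that is no test of a difference. The split followed the values, and the intervals treat genes as independent although several of each family sit side by side in the genome. Of all coding genes 84.4% had an interval and 62.1% one at the start, and of those shorter than 10 kb 70.0% and 42.6%. CXC ligands had a median of 3 intervals per gene and a pooled density of 1.23 per 10 kb, CC ligands a median of 1 and 0.395 per 10 kb, and all coding genes a median of 3 and 0.633 per 10 kb. Shared intervals again enter these values once for each gene. Median spans were 4863 bp and 3168 bp. Leaving out the CC genes on chromosome 4 kept 12 of 18 with an interval and 4 of 18 at the start.

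The chemokines that recruit neutrophils through Cxcr2 lie on chromosome 5 and had intervals at most of their starts. Cxcl1 had 5 intervals, including a 369 bp interval at chr5:90891096-90891464 centred 35 bp downstream of the start. Of all intervals in the list 0.286% were at least that wide, and it was the widest at any member. Cxcl2 had 4, of which a 201 bp interval at chr5:90903728-90903928 covered its start, and Cxcl1 and Cxcl2 shared 2 intervals that lie between them. Cxcl3 had a 222 bp interval centred 374 bp upstream of its start and none that covered it. The only interval of Cxcl5 was 201 bp wide and lay inside the gene, 254 bp from its lower-coordinate end. Cxcl15, a lung chemokine gene beside Cxcl3, had 3 intervals, all shared with Cxcl3 and none nearer than 4894 bp to its start. Interval positions thus differed among neighbours, with the start covered at Cxcl1 and Cxcl2 and not at Cxcl3 or Cxcl15.

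The interferon-induced ligands of Cxcr3 are neighbours on the same chromosome. Cxcl10 had a 260 bp interval over its start at chr5:92348850-92349109, which reached 220 bases upstream, and another 4897 bp upstream. Cxcl9 had 3 intervals but none within 1 kb of its start, the nearest being centred 2659 bp upstream, and 2 lay inside the gene toward its other end. The Cxcl10 intervals also lie inside the annotated span of Art3, and the upstream interval of Cxcl9 lies at an end of Art3. Cxcl11 is annotated as a pseudogene in this C57BL/6J reference and is not a member.

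Most of the other CXC ligands, and Cx3cl1, had an interval at the start as well. Cxcl12, the ligand of Cxcr4 that retains cells in bone marrow and tissue, had 4 intervals, with a 235 bp interval over the start at chr6:117168462-117168696, 1 interval upstream and 2 more inside the gene. Cxcl13, the B cell attractant that acts on Cxcr5, had 3, with a 215 bp interval centred 46 bp downstream of the start. Cxcl14, an epithelial chemokine, had a single 201 bp interval centred 168 bp downstream of the start. Cx3cl1, the membrane-bound fractalkine, had a 278 bp interval centred 9 bp upstream of its start at chr8:94772033-94772310 and a 276 bp interval beyond its other end. Cxcl16, the membrane-bound ligand of Cxcr6, had 4 intervals, of which the 258 bp interval at a span end also lies in Zmynd15. Of the 5 intervals of Cxcl17, a mucosal chemokine gene, 3 lie inside its neighbour Lipe, the hormone-sensitive lipase gene.

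**Figure D3:**
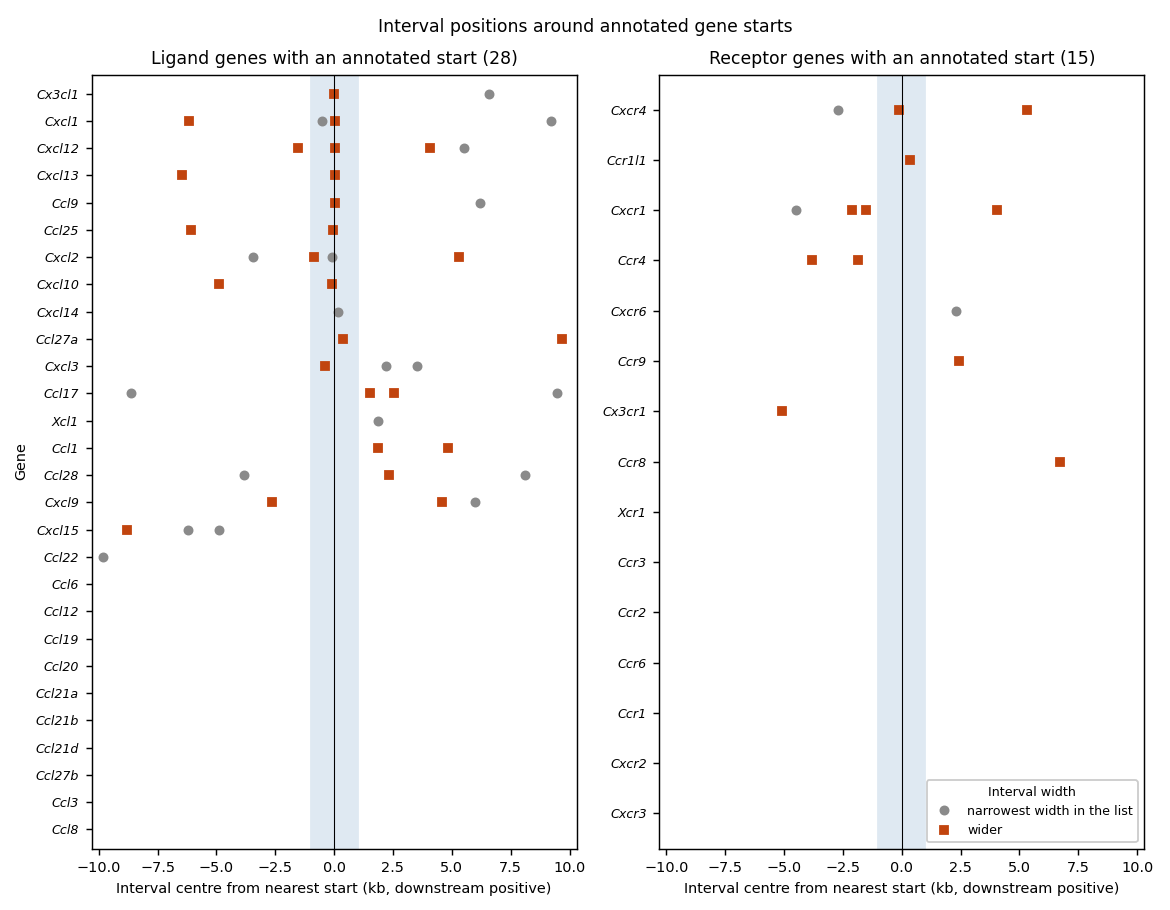
Distance of interval centres from the nearest annotated start (horizontal axis, kb, downstream positive, shown to 10 kb) for 28 ligand and 15 receptor genes, each on a row and ordered by the nearest interval; squares are intervals wider than the list's narrowest width of 201 bp, circles are of that width, and the band marks 1 kb to either side. Points of 11 ligands fall in the band, mostly on the line at the start, against Cxcr4 and Ccr1l1 among receptors.

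CC ligands were divided between a few genes with several intervals and many with 1 or none. Ccl25, which attracts T cells to the gut through Ccr9, had 6 intervals, the most of any member, over a span of 34816 bp. The interval at its first start also lies at an end of Elavl1, which encodes an RNA-binding protein. Ccl28, a mucosal ligand of Ccr10, had 5 over 30541 bp, with the nearest 2340 bp downstream of its start. Ccl17, a ligand of Ccr4, had 4, the nearest being 1512 bp downstream of the start and at the far end of this short gene, while Ccl22, the other Ccr4 ligand, had 1 at 9804 bp. Ccl9, a macrophage chemokine that acts on Ccr1, had a 231 bp interval over its start at chr11:83578471-83578701. Ccl27a, a skin chemokine, had an interval 374 bp from a start. Xcl1, the ligand of Xcr1 on dendritic cells, had 1 interval, 1865 bp downstream of its start.

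The monocyte chemoattractant gene Ccl2, the main ligand of Ccr2, had a single interval of 212 bp at chr11:82035471-82035682, which contains the lower-coordinate end of its span. Ccl7, another ligand of Ccr2, had 1 interval of 201 bp just past its upper-coordinate end, which was also the only interval of Ccl11, an eosinophil chemoattractant. Ccl12 and Ccl8 had none, the nearest intervals being 53634 bp and 59777 bp from their starts. Ccl1, a ligand of Ccr8, had 2, the nearer 1882 bp downstream of the start. Ccl5, Ccl4 and Ccl6 had 1 interval each, all outside the gene, that of Ccl6 being the interval over the Ccl9 start, and Ccl3 had none. The annotated span of Ccl4 overlaps part of Ccl3, so an interval in the shared part could not be given to either gene alone. The ligands without an interval were Ccl3, Ccl8, Ccl12, Ccl19, Ccl20, Ccl21a, Ccl21b, Ccl21d, Ccl24, Ccl26 and Ccl27b, all of the CC family.

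Receptor genes had intervals around them but few at the start. Cxcr4 had 3 intervals, and the 217 bp interval at chr1:128592307-128592523 lay 8 bp upstream of its start and covered 217 of the 250 upstream bases printed above. Ccr1l1, a gene of unclear function beside Ccr1, had a 212 bp interval centred 369 bp downstream of its start. Ccr10, which had no matched start, had an interval 985 bp from a span end that also lies at an end of Cntnap1. Cxcr1, a receptor for neutrophil chemokines, had the most intervals of the receptors with 5, all outside the gene, the nearest centred 1533 bp upstream of the start. Ccr7, which guides cells to lymph nodes, had 3, of which the 306 bp interval beyond its lower-coordinate end was among the widest 1.56% of the list. Cx3cr1, the fractalkine receptor of monocytes and macrophages, had 2, with the nearest 5097 bp upstream of its start. Cxcr3, Cxcr2 and Ccr1 had none, the nearest intervals being 35579 bp, 28699 bp and 17654 bp from their starts.

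Apart from Ccr1, the receptor genes on chromosome 9 named here had 1 or 2 intervals each. Ccr2, the receptor of inflammatory monocytes, had 1, which lay 9426 bp beyond the gene. Ccr4 and Cxcr6 had 2 each. Those of Ccr4 lay upstream of the matched start but inside the longer annotated span, and both of Cxcr6 lie inside Fyco1, a gene of vesicle transport that overlaps Cxcr6. Both intervals of Xcr1 also lie in Fyco1. Ccr3 had 2 beyond its end, Ccr8, Ccr9 and Cxcr5 had 1 each, and Ccr6 on chromosome 17 had 1 that lay 22316 bp from its nearest start. Over all members 18 of the 94 intervals lay inside or within 1 kb of an end of another coding gene, 12 of 64 at ligands and 6 of 30 at receptors. The same share over all intervals is not given here, so these counts cannot be called many or few. Without them the share of receptors with an interval was 68.4%, the same as for ligands. The share of all coding genes under this removal is not given either.

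Counts of ligands and their receptors are set side by side here for pairs chosen after their values were seen. The Cxcr2 ligands Cxcl1, Cxcl2, Cxcl3 and Cxcl5 had 5, 4, 3 and 1 intervals and Cxcr2 none. The Cxcr3 ligands Cxcl9 and Cxcl10 had 3 and 2 and Cxcr3 none. Cxcl12 and Cxcr4 had 4 and 3, both with an interval at the start. Cx3cl1 and Cx3cr1, Cxcl16 and Cxcr6, and Ccl17 and Ccr4 had 4 and 2 in each pair. For Ccl2 and Ccr2 the counts were 1 and 1, with the interval at the ligand's span end and 16497 bp from the receptor's start. The Ccr7 ligands Ccl19 and Ccl21a had none and Ccr7 3. These pairings are descriptions of single genes and carry no test.

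Ligand genes lie together in 5 neighbourhoods of at least 3 genes, joined where gaps were at most 500 kb, and the density of intervals differed widely among them. From Cxcl5 to Cxcl2 on chromosome 5, 18 intervals lay in 166.6 kb, or 108.0 per Mb, and from Ccl22 to Ccl17 on chromosome 8, 9 lay in 86.3 kb, or 104.2 per Mb. The list as a whole had 45.5 per Mb. From Ccl5 to Ccl4 there were 44.1 per Mb, close to the whole list. From Ccl2 to Ccl1 there were 4 intervals, or 24.4 per Mb, with none for 126.8 kb across Ccl11, Ccl12 and Ccl8. From Ccl27a to Ccl21a on chromosome 4 there were 3 in 1025 kb, or 2.93 per Mb, with none for 931 kb. Of 120884 gaps between neighbouring intervals 47 were at least that long. This stretch holds repeated copies. Over the 300 bases of the RefSeq promoter table, compared without gaps, Ccl27b was 100% identical to Gm13306 and Ccl21d 99.7% identical to Gm13304. For Ccl19, Ccl21a, Ccl21b and Ccl27a the closest promoter of another gene was 37.0 to 43.0% identical. Reads that match several copies equally well cannot be placed uniquely, but how many did so was not measured. The part of repeated copies in the stretch without intervals was not tested.

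**Figure D4:**
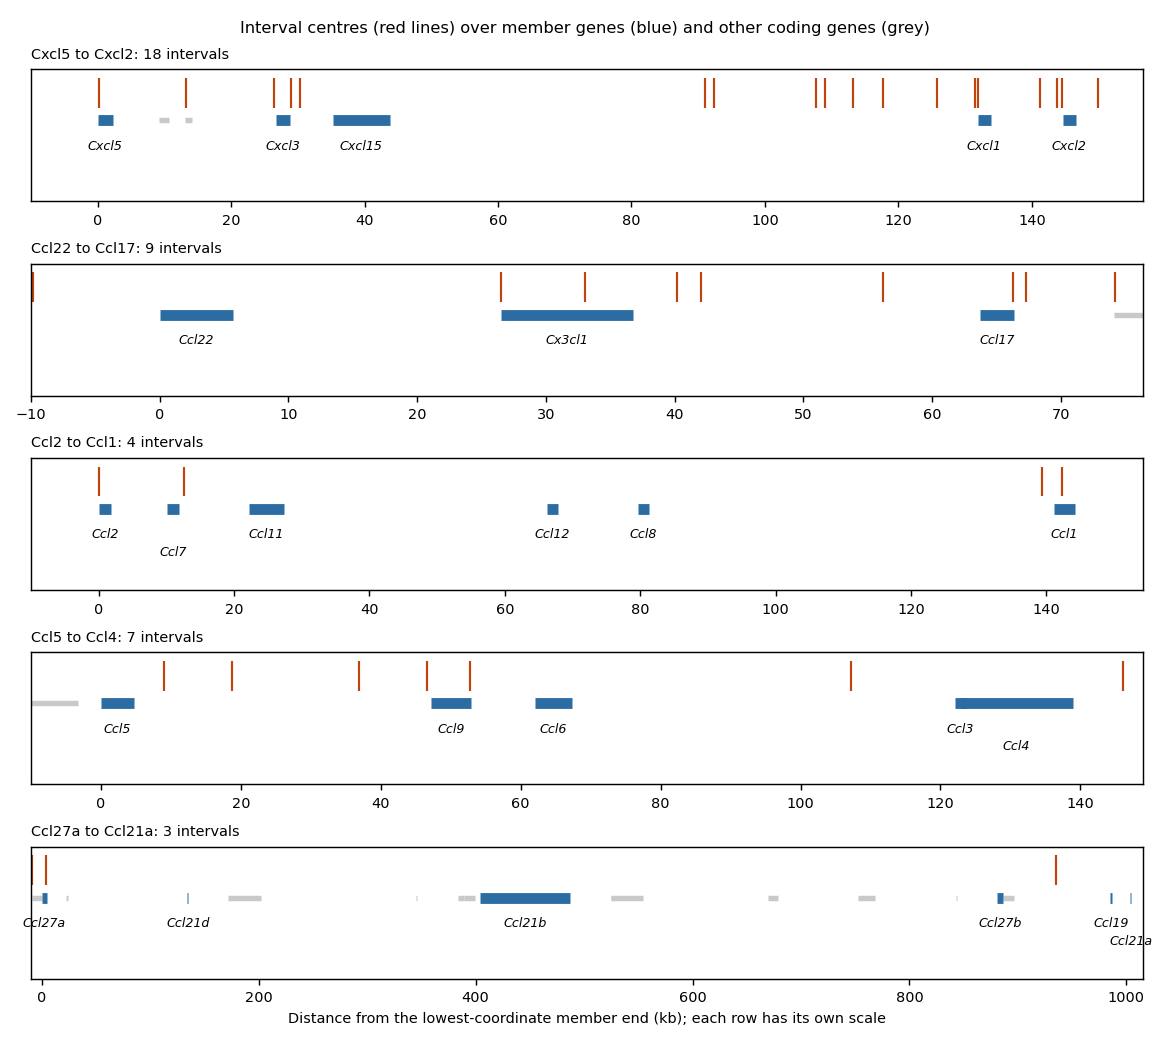
Interval centres (red lines), member genes (blue) and other coding genes (grey) along 5 neighbourhoods, with distance in kb from the lowest-coordinate member end and a separate scale for each row. The row from Cxcl5 to Cxcl2 holds 18 intervals in 166.6 kb, while the row from Ccl27a to Ccl21a holds 3 in 1025 kb.

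Intervals at members were slightly wider by their median. The median width was 210 bp at ligands, 216 bp at receptors and 203 bp over all intervals. Intervals of exactly 201 bp, the narrowest width, made up 25 of 64 at ligands (39.1%), 8 of 30 at receptors (26.7%) and 46.2% of all. When they were left out, 61 of the 94 intervals stayed. The share with an interval fell to 55.3% of ligands and was still 84.2% for receptors, and the shares at the start were 34.2% and 15.8%. The shares of all coding genes without these intervals are not given here. Those from the full list cannot be set beside these values. Cxcl5, Cxcl14 and Ccl7 were the ligands with intervals of 201 bp alone at the start or span end.

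Promoter letters were compared for the members with a matched start, over the 250 bases upstream of each. The NF-κB consensus was found at 7 of 28 ligand genes and 3 of 15 receptor genes, in 20.6% and 18.8% of their promoters, and in 7.91% of 21263 coding promoters. The ligand genes were Ccl1, Ccl9, Ccl20, Cxcl1, Cxcl2, Cxcl3 and Cxcl10, and at Ccl9, Cxcl1, Cxcl2 and Cxcl10 a match lay wholly under an interval. In Cxcl1 it ran from position -71 to -61 and in Cxcl2 from -97 to -87, and both read GGGAATTTCCC. Cxcl10 had 1 match from -159 to -150, another from -104 to -94, and an ISRE from -213 to -204, all under the same interval. The receptor matches, at Ccr1, Ccr3 and Ccr6, lay under none. They could not, as the nearest intervals were 17654 bp, 11550 bp and 22316 bp from the starts of these genes. Overlapping matches on the 2 strands are given here as 1.

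TATAAA, the letters of the TATA box, was matched on either strand at any distance from the start within the upstream bases. It was found at 10 of 28 ligand genes (29.4% of promoters) and 3 of 15 receptor genes (18.8%), and in 11.6% of coding promoters. Matches began between -32 and -27 at Ccl8, Ccl12, Cxcl3 and Cxcl15. They lay between -224 and -87 at Ccl9, Ccl27b, Cxcl9, Ccr1l1 and Xcr1. At Cxcl13, Ccl25 and Cx3cl1 they began at -46, -16 and -6. A match is thus not by itself a TATA box. In Cxcr4 the letters lay from -32 to -25 as overlapping matches on both strands, under the interval. The ISRE was found at 3 ligand genes, Ccl19, Cxcl10 and Cxcl14, at no receptor gene, and in 2.96% of coding promoters. AP-1 (TGANTCA) was found at 4 ligand and 2 receptor genes, the clock E-box (CACGTG) at 1 of each, the estrogen-related receptor motif (AAGGTCA) at 5 ligand genes and no receptor gene, and a C/EBP motif (TTGCNNAA) at 5 ligand genes and no receptor gene. In coding promoters these were found in 6.13%, 6.63%, 3.59% and 9.09%. The C/EBP genes were Ccl21a, Ccl21d, Ccl27a, Ccl27b and Cxcl13, and the estrogen-related receptor genes included Ccl27a and Ccl27b. Genes of the chromosome 4 neighbourhood thus enter both counts more than once. No E-box, estrogen-related receptor or C/EBP match of a member lay under an interval, and these letters say nothing of binding. For several of these genes none could. Ccl20, Ccl21a, Ccl21d and Ccl27b had no interval, and the nearest lay 14501 bp from the start of Ccl6 and 10182 bp from that of Xcr1.

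Other genes of the chemokine system, listed with earlier results of these data known, are read against the shares of all coding genes, 84.4% with an interval and 62.1% with one at the start. Of 9 chemokine system genes outside the symbol rule 9 had an interval and 6 had one at the start. Among them Ackr2, a decoy receptor for CC chemokines, had 6, Ackr4 5, and Ackr1, the erythroid and endothelial chemokine-binding receptor, 4. The platelet chemokine gene Pf4, between Cxcl5 and Cxcl3, had 1 at its start, and Ppbp beside it had 2 and none at the start. All 20 genes of chemokine receptor signalling had an interval and 18 had one at the start. Elmo1, which links receptors to cell migration, had 38 over 517847 bp, the kinase gene Ptk2b 20, and Prex1 12. All 20 genes of inducers of chemokine transcription had an interval and 17 had one at the start, among them Il1r1 with 17 and Nfkb1 with 13. The 3 without one at the start were the cytokine genes Tnf and Il1b and the adaptor gene Myd88, named after their values were seen. Genes of these 3 lists are longer by their median than the receptor genes. At the start, where receptors had 3 of 19, the marker lists had 3 of 10 for macrophages and Kupffer cells, 1 of 10 for lymphocytes, 2 of 8 for neutrophils, 6 of 10 for hepatocytes, 5 of 10 for sinusoidal endothelium and 7 of 10 for stellate cells.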

How the data were processed

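The deposited file holds interval positions on mm10 in 3 columns, without header, score or count. The submitters' processing notes name fastp, Bowtie2, HOMER and mm10. How reads were shifted, whether duplicates were removed, which threshold made a peak and how 6 libraries became 1 list is not given in the sources used here, so weak and strong sites cannot be separated. Starts were converted to 1-based positions. Gene spans came from RefSeq GRCm38.p6, leaving out genes on unplaced pieces, and starts from a RefSeq promoter table (250 bases before to 50 after each start), in which 43 of 57 placed members were matched. An interval counted at a gene if it overlapped the span plus 10 kb, or the start with 1 kb to either side, by at least 1 bp. Counting was tested on simulated intervals. Shares carry exact 95% binomial intervals over genes, which cover neither depth nor animals. No test was made, since no value exists per library. The members, lists and motifs were chosen with earlier results of these data known. Named were members with an interval at the start, the 6 with the most in each class and those with none; further members were named to account for the rest, and the values of 1 member and 1 listed gene are not reported here. Alternatives were other flanks and windows, interval centres, joined intervals, no narrowest intervals, strict symbols and assignment to the nearest member. Python 3.11.15, pandas 2.3.3 and scipy 1.17.1 were used.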

Additional observations from a re-analysis of the deposited data

How the results depend on the processing

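No paired analysis was possible because the list holds positions without a library, and leaving out a replicate was not possible for the same reason. The planned removal of members over 90% identical in protein was not run; members with near-identical promoters, those of the chromosome 4 neighbourhood, those without a matched start and intervals at other coding genes were left out instead, and these choices and the CXC and CC split were made after seeing the data. Ligands were above receptors at the start, and CXC above CC ligands, under all 10 alternatives tried for each; the CXC minus CC difference ranged from 50.0 to 66.7 points around 62.5, and the ligand minus receptor difference was 2.63 points with a window of 5 kb (60.5% and 57.9%, with CXC ligands at 100%). The 94 intervals became 34 with no flank, 241 with a flank of 50 kb and 61 without the narrowest width. With no flank the shares with an interval were 47.4% of ligands and 36.8% of receptors, a difference of 10.5 points that turned from -13.2, and with 50 kb they were 86.8% and 100%. Medians per gene were 0 and 0 with no flank and 5.5 and 5 with 50 kb, a difference of 0.5 that turned from -1. With members of a matched start only they were 2 and 1, a difference of 1. The receptor median was 1 and the difference 0 with interval centres, without the narrowest width, and without intervals at other coding genes, and the difference was -0.5 without the chromosome 4 members. The order of the medians and of the shares with flanks therefore depends on the setting. Depth is unknown, so a gene without an interval may hold a site under the authors' threshold.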

Other observations

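Intervals between members, outside every 10 kb window of a member, entered the neighbourhood densities but no count of a member. The 220 bp interval at chr5:90772381-90772600 is of this kind and was counted at Pf4, which is not a member. Between Cxcl15 and Cxcl1, 6 intervals lay in a stretch of 26.9 kb (chr5:90850211-90877154), at least 14.1 kb from the nearest coding gene, Cxcl1. The widest was 290 bp, and the others were 201 bp. Between Xcr1 and Ccr1, 7 intervals lay in 16.7 kb (chr9:123924190-123940903), 21.2 kb or more from Ccr1, the nearest coding gene. They were 201 to 205 bp wide. From Ccl5 to Ccl4 there were 3 such intervals, of which 1 of 318 bp lay 10.1 kb below Ccl9 (chr11:83562507-83562824).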
